A study of Mus musculus with 16 samples.

Results

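Colon stem cells are the cells that the deposited annotation calls StemCell, 814 of 22717 cells in all and of 10373 epithelial cells, taken from 16 mice and chosen by that label alone. Transverse colon was profiled by 10x Genomics single-cell RNA-seq, with 1 library per mouse, from a sorted mixture of an epithelial fraction released with EDTA and a digested lamina propria fraction. All mice were female C57Bl/6J, 7 weeks old at the start. DSS (dextran sulfate sodium, which injures the colonic epithelium) was given at 4% in the drinking water of 12 mice until collection. On day 4 of DSS, 6 of them received SZN-1326-p, a Wnt-activating antibody-based agonist, and 6 an anti-GFP antibody, each at 10 mg/kg. Cells were collected on day 5 (24 h after dosing) or day 6 (48 h after dosing). The groups are SZN-1326-p (3 mice at 24 h, 3 at 48 h), anti-GFP (3 and 3) and uninjured mice without DSS (2 and 2). No antibody dose is recorded for the uninjured mice. The annotation writes SWAP for the SZN-1326-p mice. The questions addressed are what the agonist did relative to the control antibody in injured stem cells, and what the injury did relative to uninjured stem cells.

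Stem cells at the base of colonic crypts renew the epithelium. They divide into transit-amplifying (TA) cells, which then become absorptive colonocytes or secretory cells. Wnt ligands bind Frizzled and LRP receptors and stabilise beta-catenin, which with TCF/LEF factors switches on targets such as Axin2, Lgr5, Ascl2 and Rnf43. R-spondins acting through LGR receptors strengthen the signal, and Rnf43, Znrf3, Axin2 and Notum dampen it.

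The label was set against the defining markers. Levels are given throughout as mean normalized UMIs per cell, where a UMI is 1 counted RNA molecule and the normalization is the authors' size factor of each cell. Lgr5, the R-spondin receptor that marks crypt-base stem cells, averaged 0.194 in StemCell cells, against 0.119 in TA1 and 0.0708 in TA2 cells. Axin2, a feedback inhibitor of Wnt signalling, averaged 0.348, against 0.219 in TA1 and 0.150 in TA2 cells. Ascl2, a transcription factor of stem cell identity, averaged 0.149, against 0.0314 in TA1 and 0.0330 in TA2 cells. StemCell cells had the highest level of Axin2, Ascl2 and Smoc2 among the 17 epithelial types and ranked 2 of 17 for Lgr5, behind tuft cells at 0.424. They also ranked first for Rnf43 and for Slc12a2, an ion cotransporter of the crypt base, and 16 of 17 for Krt20, a keratin of surface colonocytes. These values are a description, since the authors' types were made from the same cells.

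Single cells rarely held a marker UMI. Lgr5 was detected in 73 StemCell cells (8.97%), Axin2 in 156 (19.2%), Ascl2 in 77 (9.46%) and Smoc2, a secreted matricellular protein of crypt-base cells, in 225 (27.6%). In enterocytes, which should lack them, the shares were 0.251%, 1.63%, 0.501% and 0.752%, at a median of 7481 UMIs per enterocyte and 8224.5 per StemCell cell. None of the 4 markers was detected in 457 StemCell cells (56.1%). The goblet mucin Muc2 was detected in 53.2% of StemCell cells and 66.0% of enterocytes. A share at or below that of enterocytes is not read as expression; the part of free RNA in it was not tested.

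StemCell cells held 1117 to 44508 UMIs and 154599 to 1186621 UMIs per mouse among mice with at least 10 such cells. A median of 41.0% of their UMIs was mitochondrial, against 33.3% over all epithelial cells, and 124 (15.2%) held at least 2 markers of another lineage. A cell barcode was shared with another library in 7 StemCell cells. Over all cells, SZN-1326-p mouse 2 at 24 h and mouse 3 at 48 h stood apart by median mitochondrial shares of 18.9% and 24.1%, against 5.06% to 11.6% in the other DSS mice. Uninjured mice were at 19.2% to 26.1% over all cells. In StemCell cells alone the medians of these 2 SZN-1326-p mice were 44.4% and 39.1%, against 29.5% to 44.0% in the other DSS mice. At 24 h, 3 libraries held almost no StemCell cells: SZN-1326-p mouse 1 (4 cells) and anti-GFP mice 1 (3 cells) and 2 (1 cell). In those 3 libraries 93.1% to 97.2% of TA cells carried the TA1 label, against 6.82% to 62.8% in the other libraries; the part of this in the share of StemCell cells was not tested. Gene tests used the 13 mice with at least 10 StemCell cells, which leaves anti-GFP mouse 3 (36 cells) as the single anti-GFP mouse at 24 h. Its spread is assumed to be like that of the other groups.

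At 48 h StemCell cells made up more of the epithelium in SZN-1326-p mice than in anti-GFP mice. The shares were 10.4%, 10.9% and 11.1% of epithelial cells in SZN-1326-p mice, against 5.53%, 6.58% and 6.77% in anti-GFP mice (means 10.8% ± 0.367 and 6.30% ± 0.668, SD, n = 3 each). Every SZN-1326-p mouse lay above every anti-GFP mouse. The ratio was 1.68 and the two-sided exact permutation p was 0.1, the smallest that 3 mice against 3 allow. In uninjured mice at 48 h the shares were 7.41% and 11.9%. The sort and the mixing of fractions set the share of epithelium in a library, so shares are given within the epithelium, in which more StemCell cells and fewer cells of other types cannot be told apart.

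At 24 h the shares overlapped, with 0.501%, 5.20% and 4.04% in SZN-1326-p mice against 0.654%, 0.308% and 8.72% in anti-GFP mice (exact permutation p = 0.9). Over both times the log2 difference was 0.71, with an exact permutation p of 0.355 and 0.431 after adjustment over the 17 epithelial types. Anti-GFP mice had a lower mean log2 share than uninjured mice (log2 difference -1.73, exact permutation p = 0.11, adjusted 0.17), whose 24 h shares were 12.2% and 9.91%. That difference lay past the adjusted threshold without any 1 of the anti-GFP mice at 24 h, at -1.50 without mouse 1 (adjusted exact permutation p = 0.0405), -1.32 without mouse 2 (0.0472) and -2.38 without mouse 3 (0.0405). It did not pass without any 1 of the other 7 mice of this comparison (adjusted exact permutation p of 0.177 to 0.243) or with the replicate number as a block (adjusted 0.213).

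Against the cycling compartment alone the same order stood at 48 h. StemCell cells were 31.9%, 27.5% and 38.6% of StemCell and TA cells together in SZN-1326-p mice, 20.0%, 21.0% and 22.8% in anti-GFP mice, and 50.4% and 54.3% in uninjured mice. SZN-1326-p mice thus lay between the other groups on this ratio at 48 h. At 24 h the order of the injured arms was the other way, at a mean of 7.47% in SZN-1326-p mice and 10.9% in anti-GFP mice, and over both times the log2 difference with this denominator was 0.24 (exact permutation p = 0.83). Enterocyte precursors, the next step toward colonocytes, had a log2 difference of 1.81 between SZN-1326-p and anti-GFP mice over both times (adjusted exact permutation p = 0.128).

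**Figure D1:**
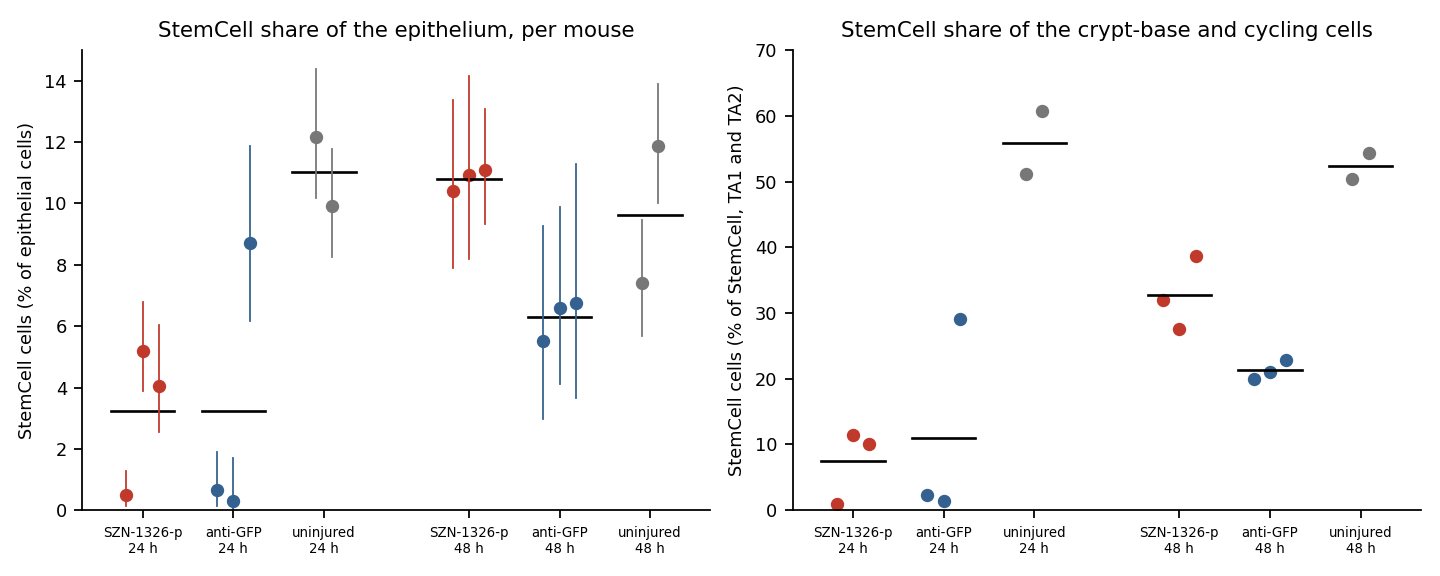
StemCell cells as a percentage of epithelial cells (left) and of StemCell, TA1 and TA2 cells together (right), 1 point per mouse, by treatment and time; horizontal lines are group means and vertical lines 95% exact binomial intervals, which cover counting error only. At 48 h the SZN-1326-p mice sit at 10.4% to 11.1% of the epithelium and the anti-GFP mice at 5.53% to 6.77%, and at 24 h 3 mice sit below 1%.

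SZN-1326-p at 48 h went with higher levels of a small set of genes in StemCell cells, led by Sycn, Adh1, Thbs4, B3gnt7 and Hoxb13, and with lower levels of Hoxb5, Timp3, Nbea and Myh14. Of 10889 genes tested by limma, 15 passed an adjusted p of 0.05 (0.138%), of which 11 were higher (0.101%) and 4 lower (0.0367%). With voom on recovered UMI sums the calls were 12 higher and 23 lower, and with the mean of the deposited log2 values 8 higher and 11 lower. The median log2 difference over all genes tested was 0.16, against -0.11 with voom and -0.01 with the deposited log2 values, so that neither the balance of calls nor the sign of the median holds across scalings. Genes whose groups did not overlap were 13.9% of those tested.

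Sycn encodes syncollin, known as a secretory granule protein of the pancreas. It was at 2.66, 4.61 and 4.56 in SZN-1326-p mice at 48 h, against 0.423, 0.642 and 1.03 in anti-GFP mice. The groups lay far apart, and the uninjured mice at 48 h (4.56 and 4.45) lay within the SZN-1326-p range. The log2 difference was 2.53 (SE 0.38, limma adjusted p = 0.0139, higher in 3 of 3 mice). At 24 h the 2 SZN-1326-p mice tested, at 0.556 and 1.85, lay either side of the anti-GFP mouse at 0.855.

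Thbs4, a thrombospondin of the extracellular matrix, was at 1.13, 1.29 and 1.47 in SZN-1326-p mice at 48 h, against 0.359, 0.33 and 0.384 in anti-GFP mice. No mouse of either group came near the other group, and the log2 difference was 1.82 (SE 0.33, limma adjusted p = 0.0139, higher in 3 of 3 mice). Thbs4 was the 1 gene that passed over the mean of both times (0.00918% of genes tested), at 1.80 (SE 0.29, limma adjusted p = 0.0254, higher in 5 of 5 mice). Its 24 h levels were 0.52 and 0.527 in SZN-1326-p mice and 0.146 in the anti-GFP mouse. The count over both times was 0 without SZN-1326-p mouse 3 at 24 h or any 1 of the SZN-1326-p mice at 48 h, and 4 without anti-GFP mouse 2 or mouse 3 at 48 h.

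Adh1, an alcohol dehydrogenase that also acts on retinol, was at 2.52, 2.29 and 3.92 in SZN-1326-p mice at 48 h, against 0.232, 0.0329 and 0.331 in anti-GFP mice, with a log2 difference of 4.22 (SE 0.58, limma adjusted p = 0.0139, higher in 3 of 3 mice). All 3 SZN-1326-p mice lay above the uninjured mice, which were at 1.46 and 1.10.

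B3gnt7, a glycosyltransferase that extends sugar chains, gave 122 UMIs in the SZN-1326-p mice and none in the 3 anti-GFP mice. Its levels were 0.348, 0.299 and 0.773 in SZN-1326-p mice at 48 h. Against a floor of 3 UMIs over the anti-GFP group it was at least 12.2-fold higher; the fitted log2 difference of 5.47 (SE 0.88, limma adjusted p = 0.0139, higher in 3 of 3 mice) depends on the 0.01 added before taking logs and is no bound.

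Homeobox genes that set position along the gut stood on both sides. Hoxb13, a posterior HOX gene, was at 0.788, 0.459 and 1.37 in SZN-1326-p mice at 48 h, against 0, 0.0833 and 0 in anti-GFP mice. These were 183 against 2 UMIs, a ratio of 27.5 per total UMI (95% interval of 7.51 to 229 for counting error only), and the limma adjusted p was 0.0139, higher in 3 of 3 mice. Hoxb5, a more anterior member of the same cluster, was at 0.0416, 0.0943 and 0.0493 in SZN-1326-p mice, against 0.45, 0.45 and 0.359 in anti-GFP mice (log2 difference -2.64, SE 0.53, limma adjusted p = 0.0428, lower in 3 of 3 mice). Both HOX genes thus separated the arms fully, in opposite directions.

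The RefSeq promoters of Sycn, Thbs4 and B3gnt7 are shown because their levels moved the same way at 48 h; Adh1 is left out because the promoter entry lies 16594 bases from the gene start of the annotation, and Hoxb13 and Hoxb5 are named only. Each runs from 250 bases before to 50 after the RefSeq start in GRCm38.p6, read 5′ to 3′ on the strand of the gene: Sycn at chr7:28540635-28540934 (plus strand), Thbs4 at chr13:92794769-92795068 (minus strand) and B3gnt7 at chr1:86302971-86303270 (plus strand, 389 bases from the annotation's gene start). Capitals mark a match to the CDX motif TTTATG or its reverse complement CATAAA; the TCF/LEF motif CTTTGAT or ATCAAAG was searched as well, on both strands.
Sycn: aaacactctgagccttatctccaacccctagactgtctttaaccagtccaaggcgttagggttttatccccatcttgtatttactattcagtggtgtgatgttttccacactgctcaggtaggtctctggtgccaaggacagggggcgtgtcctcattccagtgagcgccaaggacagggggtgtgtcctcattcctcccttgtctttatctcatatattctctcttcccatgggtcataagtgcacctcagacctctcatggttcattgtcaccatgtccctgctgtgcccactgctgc
Thbs4: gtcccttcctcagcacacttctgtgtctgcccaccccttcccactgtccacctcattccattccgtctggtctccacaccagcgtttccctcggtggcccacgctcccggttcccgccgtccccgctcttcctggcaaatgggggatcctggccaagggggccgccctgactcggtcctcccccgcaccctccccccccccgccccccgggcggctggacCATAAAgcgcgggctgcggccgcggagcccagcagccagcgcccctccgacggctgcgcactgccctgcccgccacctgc
B3gnt7: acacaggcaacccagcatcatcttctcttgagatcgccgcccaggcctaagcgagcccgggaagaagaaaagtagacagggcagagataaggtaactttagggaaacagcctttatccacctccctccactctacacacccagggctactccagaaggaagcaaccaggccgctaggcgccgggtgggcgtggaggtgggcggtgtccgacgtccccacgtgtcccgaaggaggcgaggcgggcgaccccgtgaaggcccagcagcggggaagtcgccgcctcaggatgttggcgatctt

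Thbs4 held 1 CDX match, 30 bases before the start, and Sycn and B3gnt7 held none. No TCF/LEF match was found in the 3 windows, nor in those of Axin2, Ascl2 and Rnf43. Among 32851 RefSeq promoters of the same length, 1225 (3.73%) held the TCF/LEF letters and 3893 (11.9%) the CDX letters, so that a match or its lack in these windows is a description only.

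Further genes passed the test at 48 h. Muc3, a membrane-bound mucin of absorptive cells, was at 2.64, 2.34 and 5.95 in SZN-1326-p mice, against 0.634, 0.944 and 0.87 in anti-GFP mice (log2 difference 2.03, SE 0.38, limma adjusted p = 0.0428). Il18, an epithelial cytokine of the interleukin-1 family, was at 1.29, 0.956 and 1.27 in SZN-1326-p mice, against 0.453, 0.299 and 0.168 in anti-GFP mice (1.99, SE 0.41, limma adjusted p = 0.0462). AA467197, also known as Nmes1, was at 1.87, 1.93 and 2.43, against 0.67, 0.913 and 0.207 (2.01, SE 0.38, limma adjusted p = 0.0338). All 3 genes were higher in 3 of 3 mice, with no overlap.

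Besides Hoxb5, 3 genes were lower at 48 h. Timp3, an inhibitor of matrix metalloproteinases, was at 0.164, 0.0782 and 0.204 in SZN-1326-p mice, against 0.892, 0.384 and 1.08 in anti-GFP mice (log2 difference -2.30, SE 0.46, limma adjusted p = 0.0428). Nbea, a scaffold of membrane trafficking, was at 0.0491, 0.0701 and 0.0342, against 0.244, 0.35 and 0.552 (-2.65, SE 0.54, limma adjusted p = 0.0428). Myh14, a non-muscle myosin heavy chain, was at 0.651, 0.768 and 0.621, against 1.31, 1.82 and 1.71 (-1.22, SE 0.25, limma adjusted p = 0.0428). Each was lower in 3 of 3 SZN-1326-p mice.

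Gcg, the proglucagon gene of enteroendocrine L cells, also passed the test, with 49 UMIs in SZN-1326-p mice and none in anti-GFP mice at 48 h (at least 4.91-fold higher against the same floor). Its StemCell level of 0.477, 0.451 and 0.119 lay below the mean of 2.75 in immune cells of the same SZN-1326-p mice, and it is not read as StemCell expression; the part of free RNA in the call was not tested.

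The same genes were also measured in other cells of the 48 h libraries. Sycn averaged 2.99 in TA cells, 8.76 in other epithelial cells and 0.50 in immune cells of SZN-1326-p mice, against 0.68, 5.17 and 0.12 in anti-GFP mice. For Hoxb13 the corresponding means were 0.79, 1.49 and 0.12 in SZN-1326-p mice, against 0.08, 0.71 and 0.02 in anti-GFP mice. The difference between the SZN-1326-p effect in StemCell and in TA cells, over the mean of both times, did not pass for any gene: limma called 0 of 10274 genes (0.0%), with 743 (7.23%) at an unadjusted p under 0.05, and voom called 0. The part of free RNA in these levels was not tested.

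Several measures moved with the arms at 48 h. Median UMIs per StemCell cell were 8305, 9933 and 7128 in SZN-1326-p mice, below the 13159, 11511 and 11607 of anti-GFP mice. All 8 fibroblast markers tested had a positive log2 difference (median 1.33, or 1.03 with markers at 0 set to their bound), none past the test, and their summed level was 0.596, 0.818 and 0.983 in SZN-1326-p mice against 0.427, 0.353 and 0.200 in anti-GFP mice. Of the 10 fibroblast markers listed, 0 had no UMI in the SZN-1326-p mice and 1 (Col6a1) in the anti-GFP mice. T cell markers summed to 0 to 0.430 in SZN-1326-p mice and 0 to 0.103 in anti-GFP mice, and myeloid markers to 0.164 to 0.226 and 0.0524 to 0.405. Endothelial markers summed to 0.0724 to 0.0805 in SZN-1326-p mice (16 UMIs), and all 10 were at 0 in anti-GFP mice. The part of depth and of these markers in the results was not tested. StemCell cells with at least 2 markers of another lineage were 3 of 53, 8 of 49 and 7 of 124 in SZN-1326-p mice at 48 h. In anti-GFP mice at 48 h they were 3 of 13, 1 of 21 and 3 of 13. Leaving such cells out in all mice gave 0 calls in place of 15. Leaving out the SZN-1326-p mice of high mitochondrial share over all cells gave 1. The count was 1 without SZN-1326-p mouse 1, 0 without mouse 2 or mouse 3, and 65, 30 and 29 without anti-GFP mouse 1, 2 and 3. Of 19 alternative settings, the minimum of 5 cells per mouse kept the same mice as the main fit and so repeats its calls. Of the 19 settings, Sycn passed in 16, Adh1 and Thbs4 in 13, and B3gnt7 and Hoxb13 in 11. Hoxb5, AA467197 and Gcg passed in 10, Muc3 and Timp3 in 8, and Il18, Myh14 and Nbea in 6.

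**Figure D2:**
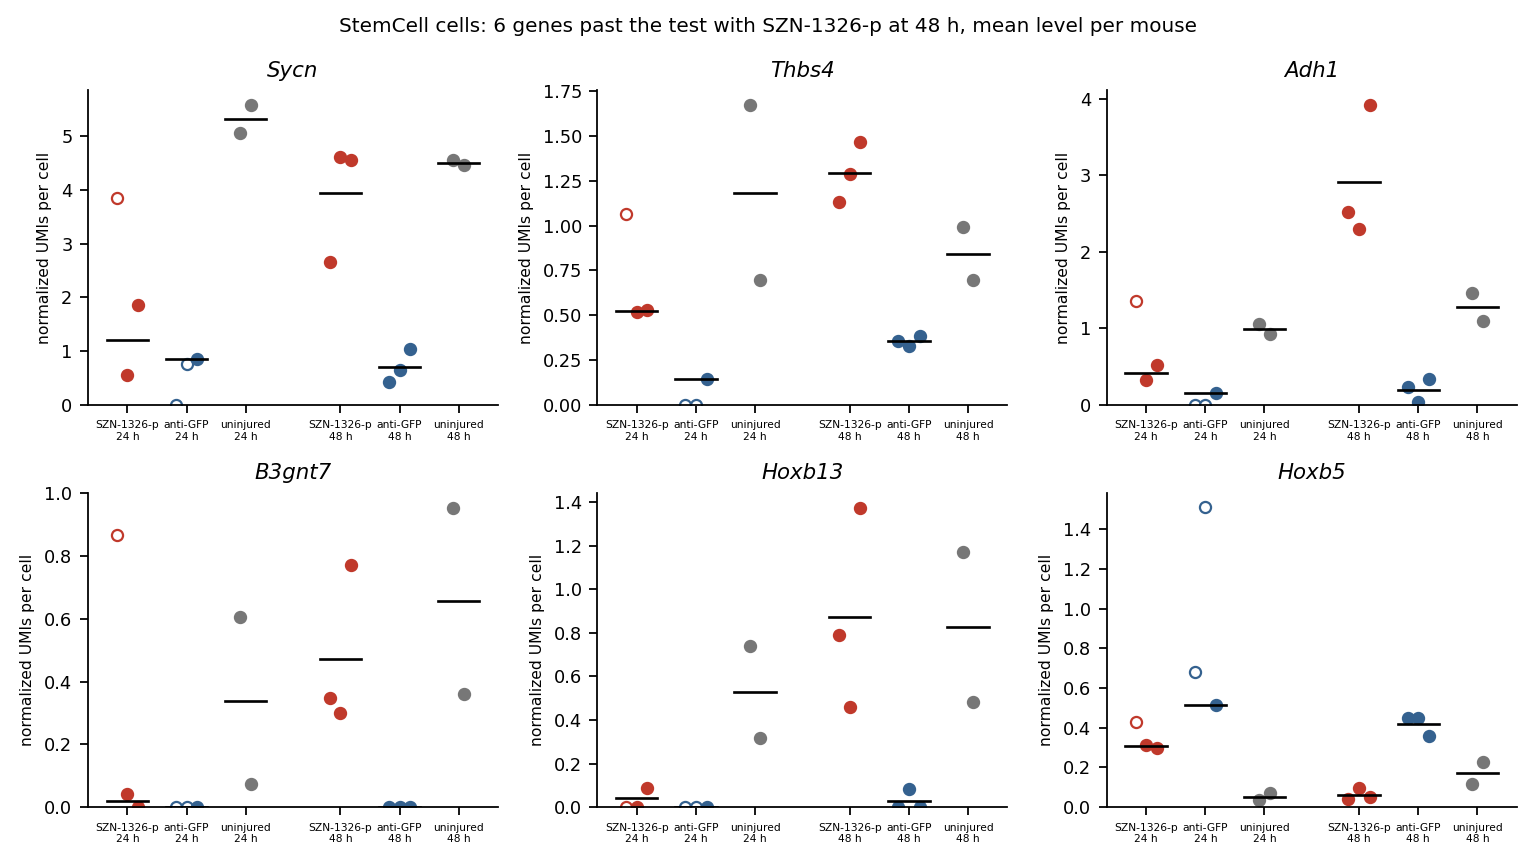
Mean normalized UMIs per StemCell cell (y axis) of 6 genes past the test with SZN-1326-p at 48 h, 1 point per mouse; lines are means of the mice in the fit, and hollow points are mice with fewer than 10 StemCell cells, which were not in it. At 48 h Sycn, Thbs4, Adh1, B3gnt7 and Hoxb13 are higher, and Hoxb5 lower, in all 3 SZN-1326-p mice than in any anti-GFP mouse.

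At 24 h no gene passed between SZN-1326-p and anti-GFP mice: limma called 0 of 10889 genes (0.0%), with 684 (6.28%) at an unadjusted p under 0.05, and voom on recovered UMI sums also called 0. With 2 SZN-1326-p mice against 1 anti-GFP mouse the values are mainly a description. The genes of lowest p included Rcc2, which helps build the spindle, at 0.892 and 0.586 in SZN-1326-p mice against 0.138 in the anti-GFP mouse (log2 difference 2.31, SE 0.45, limma adjusted p = 0.18). Nolc1, a nucleolar protein of ribosome assembly, was at 0.436 and 0.491 against 0.0619 (2.72, SE 0.60, limma adjusted p = 0.41). Impa2, Enpp1, Lig3 and Ccnd2 completed the 6 genes of lowest p, with log2 differences of 3.25, -4.31, 2.83 and 1.79. Over the mean of both times the genes of lowest p after Thbs4 included Ier3, an early response gene, at 2.16 (SE 0.45, limma adjusted p = 0.23), and Foxa2, a secretory lineage factor, at 1.92 (SE 0.42, limma adjusted p = 0.23).

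The difference between the 48 h and the 24 h effect passed for 0 of 10889 genes by limma (0.0%), with 767 (7.04%) at an unadjusted p under 0.05, and for 0 by voom. Its lowest p belonged to Hsph1, a heat shock co-chaperone, which was at 0.781, 0.649 and 0.589 in SZN-1326-p mice at 48 h against 1.93, 1.40 and 1.72 in anti-GFP mice, and at 0.727 and 0.447 against 0.178 at 24 h (difference of effects -2.93, SE 0.52, limma adjusted p = 0.082). Hsp90aa1, the stress-inducible HSP90, was at 3.92, 4.86 and 2.79 in SZN-1326-p mice at 48 h against 10.1, 7.65 and 7.07 in anti-GFP mice (log2 difference -1.12, SE 0.24, limma adjusted p = 0.060). Areg, an EGF receptor ligand, was at 0.437, 0.433 and 0.608 against 0.121, 0.105 and 0.157 at 48 h (1.87, SE 0.41, limma adjusted p = 0.060). These 3 genes separated the arms at 48 h without passing the test. Of 19 heat shock and dissociation genes tested, 0 passed at 48 h and the median log2 difference was 0.04. The list was split, with 10 positive and 9 negative differences. At an unadjusted limma p under 0.05, 3 were higher and 4 lower, against 7.82% higher and 2.53% lower of all genes tested.

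Stem cell and Wnt genes did not pass the test in SZN-1326-p against anti-GFP mice at either time. At 48 h Lgr5 was at 0.0586, 0.241 and 0.0377 in SZN-1326-p mice, against 0.419, 0 and 0.466 in anti-GFP mice (log2 difference -0.44, SE 1.49, limma adjusted p = 0.95). The groups overlapped, and 1 anti-GFP mouse had no Lgr5 UMI among 21 StemCell cells. Axin2 was at 0.367, 0.208 and 0.191, against 0.430, 0 and 0.258 (1.27, limma adjusted p = 0.72). At 24 h Axin2 was at 0.342 and 0.276 in SZN-1326-p mice and at 0 in the anti-GFP mouse with 36 cells (limma adjusted p = 0.73).

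The other markers had values on either side. Ascl2 was at 0.178, 0.123 and 0.151 in SZN-1326-p mice at 48 h, against 0.0797, 0 and 0.115 in anti-GFP mice (1.72, limma adjusted p = 0.55), and Smoc2 had a log2 difference of -0.70 (limma adjusted p = 0.52). Rnf43, the ligase that removes Frizzled receptors, was at 0.394 and 0.520 in SZN-1326-p mice at 24 h against 0.0895 in the anti-GFP mouse (2.22, SE 0.58, limma adjusted p = 0.48), and its 48 h difference was 0.00. Ccnd1 and Cd44, often listed as Wnt targets, had 48 h differences of -0.87 and -1.26 (limma adjusted p = 0.30 and 0.44). Nkd1, a feedback inhibitor, was at 0.0473, 0.0586 and 0.0161 in SZN-1326-p mice at 48 h and at 0 in the anti-GFP mice (limma adjusted p = 0.39). The SZN-1326-p levels rest on 2, 1 and 1 UMIs, too few to compare, and the anti-GFP mouse at 24 h held 1 UMI.

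**Figure D3:**
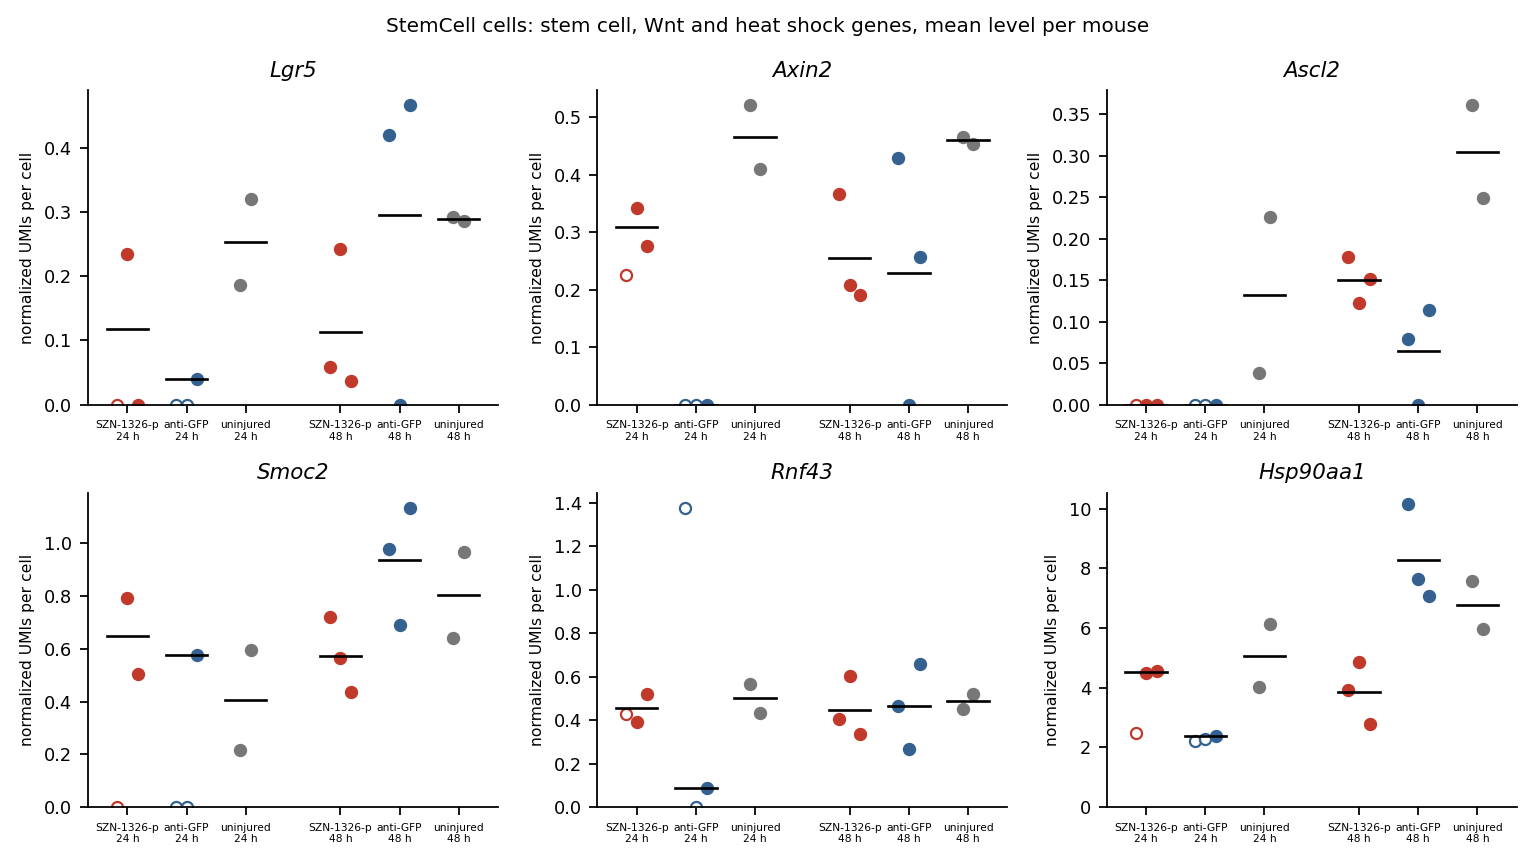
Mean normalized UMIs per StemCell cell (y axis) of Lgr5, Axin2, Ascl2, Smoc2, Rnf43 and Hsp90aa1, 1 point per mouse; lines are means of the mice in the fit and hollow points are mice with fewer than 10 StemCell cells. SZN-1326-p and anti-GFP mice overlap at 48 h for Lgr5, Axin2, Smoc2 and Rnf43, and Hsp90aa1 at 48 h sits at 2.79 to 4.86 in SZN-1326-p mice and 7.07 to 10.1 in anti-GFP mice.

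By list, the Wnt pathway gave no call at 48 h. Of 16 Wnt target and feedback genes tested 0 passed, with a median log2 difference of 0.01 (-0.04 with genes at 0 set to their bound); of 15 receptors and co-receptors 0 passed (median -0.14); and of 16 transducers 0 passed (median -0.37). Of 23 stem cell markers 0 passed (median 0.07), of 38 DNA replication genes 0 (median -0.05) and of 30 mitosis genes 0 (median 0.61, or 0.44 with bounds). All genes tested had a median of 0.16. At 24 h, against the single anti-GFP mouse, the Wnt target and feedback list had a median of 0.29 (0.003 with bounds). All genes tested had -0.05 at that time. Over the mean of both times the Wnt target median was 0.44, with 10 genes positive and 6 negative, against 0.06 for all genes tested. The proliferation gene Mki67 was at 0.375, 0.913 and 0.628 in SZN-1326-p mice at 48 h, against 0.191, 0.891 and 0.367 in anti-GFP mice (limma adjusted p = 0.74).

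The remaining lists held few calls at 48 h. Of 31 colonocyte genes 1 passed (Muc3; median 0.32), of 20 NF-kB and cytokine genes 1 (Il18; median 0.34) and of 7 enteroendocrine genes 1 (Gcg; median 0.91), each higher. None passed of 11 antimicrobial genes (median -1.38), 20 unfolded protein response genes (median -0.40), 18 fetal-like repair genes (median 0.45), 19 interferon response genes (median 0.25) and 16 goblet genes (median 0.15, or -0.12 with bounds).

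**Figure D4:**
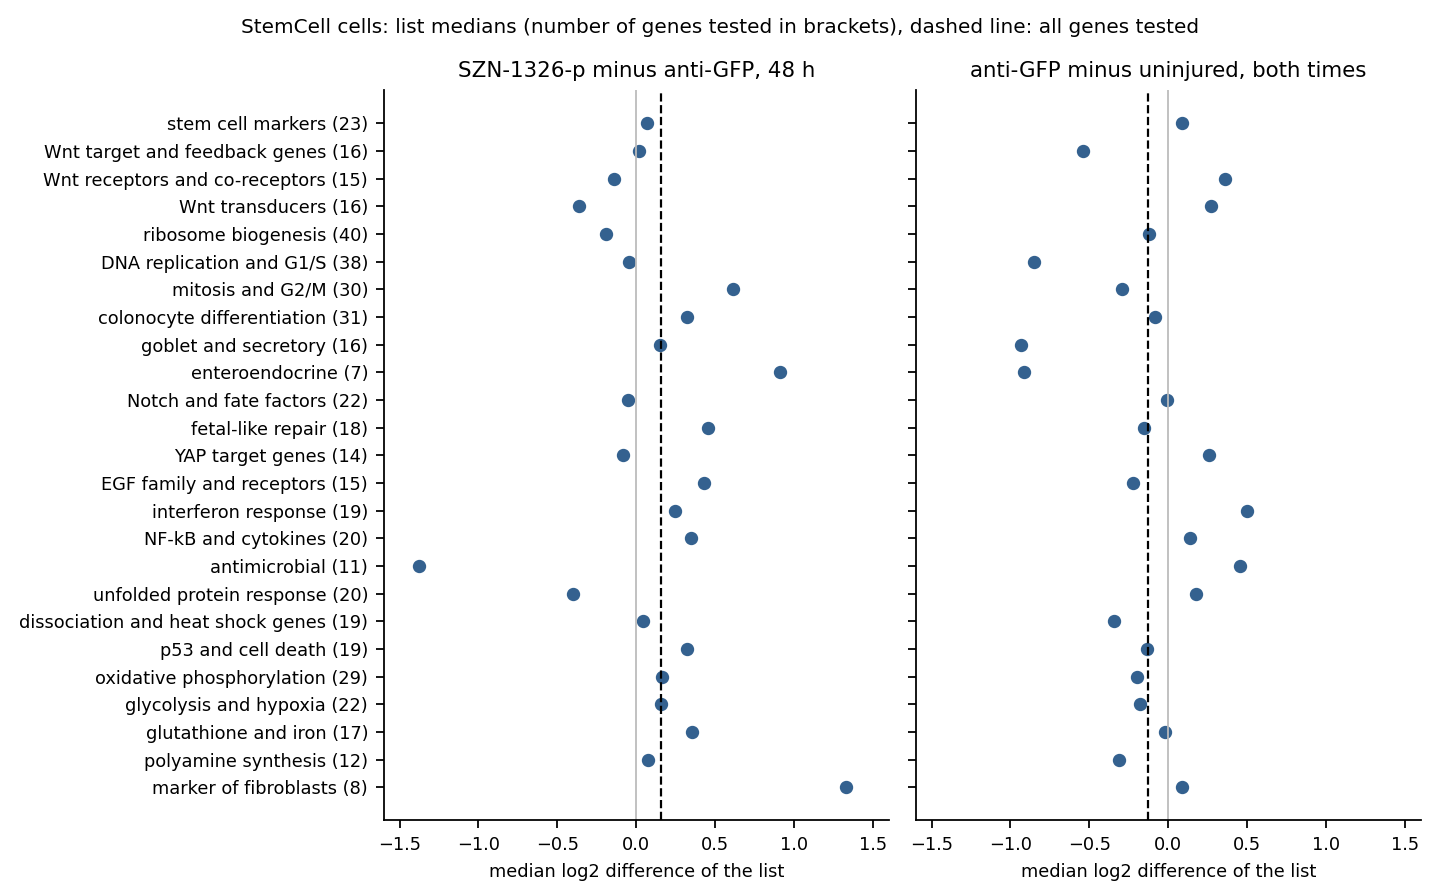
Median log2 difference of each gene list in StemCell cells (x axis; number of genes tested in brackets) for SZN-1326-p minus anti-GFP at 48 h (left) and anti-GFP minus uninjured over both times (right), with the median of all genes tested as a dashed line (0.16 and -0.13). The 2 panels share the anti-GFP mice, and the Wnt target list sits at 0.01 on the left and -0.54 on the right.

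DSS injury, read as anti-GFP against uninjured mice, went with higher Reg3b, Reg3g and Dmbt1 in StemCell cells and with lower Agr2, Klk1 and Ccnd2. Since no antibody dose is recorded for uninjured mice, DSS and the control antibody cannot be told apart in this comparison. Of 10889 genes, 39 passed over the mean of both times (0.358%), 13 higher (0.119%) and 26 lower (0.239%); genes whose groups did not overlap were 6.78%, and the median log2 difference was -0.13. With voom the calls were 121 higher and 40 lower with a median of 0.15, and with the deposited log2 values 33 higher and 18 lower with a median of 0.01, so that the balance of calls turned. The 24 h side of this mean rests on the single anti-GFP mouse 3. The anti-GFP mice are the same ones that SZN-1326-p was compared with, so the directions of these 2 comparisons are linked.

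Reg3b, an antibacterial lectin, was at 132 in the anti-GFP mouse at 24 h and at 24.4, 78.3 and 64.4 in those at 48 h, against 0, 0.0671, 0 and 0.229 in uninjured mice (log2 difference 11.11, SE 1.24, limma adjusted p = 0.0202, higher in 4 of 4 mice). Reg3g, its close relative, was at 12.7, 5.27, 18.4 and 10.3 in anti-GFP mice, against 0.145, 0.275, 0.0897 and 0.213 in uninjured mice (5.99, SE 0.72, limma adjusted p = 0.0202, higher in 4 of 4 mice). No anti-GFP mouse came near an uninjured one. Reg3b was also counted in immune cells of the same libraries, at 6.26 at 24 h and a mean of 2.18 at 48 h, against 152.6 and 72.4 in TA cells; the part of free RNA in the StemCell level was not tested.

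Dmbt1, a secreted scavenger receptor of mucosal defence, was at 66.2 in the anti-GFP mouse at 24 h and at 45.0, 50.6 and 56.1 in those at 48 h, against 23.1, 24.5, 14.1 and 21.7 in uninjured mice. All 4 anti-GFP mice lay above all 4 uninjured mice (log2 difference 1.50, SE 0.21, limma adjusted p = 0.00293). Elf3, an epithelial ETS factor, was at 4.74, 4.09, 3.75 and 3.91 in anti-GFP mice, against 1.72, 2.28, 2.38 and 2.79 in uninjured mice (0.93, SE 0.20, limma adjusted p = 0.029). Tifa, an adaptor of NF-kB signalling, was at 1.13, 1.12, 1.96 and 1.96, against 0.315, 0.513, 0.699 and 0.812 (1.29, SE 0.27, limma adjusted p = 0.029). Both genes were higher in 4 of 4 anti-GFP mice, with no overlap.

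Agr2, the disulfide isomerase needed for mucin folding, was at 3.22 in the anti-GFP mouse at 24 h and at 2.49, 3.11 and 4.13 in those at 48 h, against 9.95, 12.1, 7.53 and 10.9 in uninjured mice. Every anti-GFP mouse lay below every uninjured mouse (log2 difference -1.64, SE 0.26, limma adjusted p = 0.00294). Klk1, tissue kallikrein, was at 1.00, 0.398, 0.186 and 0.524 in anti-GFP mice, against 2.18, 1.80, 2.59 and 2.14 in uninjured mice (-1.86, SE 0.33, limma adjusted p = 0.0111, lower in 4 of 4 mice). Krt20 had no UMI in anti-GFP StemCell cells and 36 in uninjured ones, at least 3.22-fold lower against the floor of 3 UMIs.

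Other genes passed under injury. Higher in all 4 anti-GFP mice were Sulf2, a sulfatase that trims heparan sulfate (log2 difference 2.65), the RAS-association gene Rassf4 (2.30), AW112010, annotated as a long non-coding RNA (2.36), the sphingomyelinase Smpd3 (1.51), Ceacam1, an adhesion molecule of colonocytes (1.07), and Lars2, the mitochondrial leucyl-tRNA synthetase (1.21). Smpd3 was at 1.19, 1.27, 1.81 and 1.38 in anti-GFP mice, against 0.505, 0.463, 0.361 and 0.514 in uninjured mice. Lower were the cell cycle regulator Rgcc (-5.06), the selenium-binding protein Selenbp1 (-1.36), the BMP target Id1 (-1.16) and the tetraspanin Tspan33 (-2.30). Rgcc was at 0, 0.0914, 0 and 0.141 in anti-GFP mice, against 0.407, 0.799, 0.811 and 1.26 in uninjured mice. The groups did not overlap for these genes except for Id1 and Tspan33. Tppp3 had 1 against 110 UMIs, a ratio of 0.0339 per total UMI (95% interval 0.00085 to 0.193), and Chp2 had 3 against 174, a ratio of 0.0643 (0.0131 to 0.191), both intervals covering counting error only. Limma adjusted p ranged over these genes up to 0.0446 (Selenbp1).

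Among cycle and Wnt-linked genes, Ccnd2 (cyclin D2) was at 0.588, 2.40, 1.24 and 2.20 in anti-GFP mice, against 2.95, 2.41, 3.09 and 2.49 in uninjured mice (-1.36, SE 0.25, limma adjusted p = 0.0127, lower in 4 of 4 mice). The 24 h anti-GFP mouse was the lowest, and the highest anti-GFP mouse lay just under the lowest uninjured mouse. Lig1, the replicative DNA ligase, was at 0.0629, 0.0914, 0.259 and 0.462 in anti-GFP mice, against 0.453, 0.509, 0.734 and 0.554 in uninjured mice, with overlap by 1 mouse (-2.11, SE 0.46, limma adjusted p = 0.0349). Axin2 and Ascl2 did not pass (log2 differences -3.86 and -3.05, limma adjusted p = 0.18 and 0.17), nor did Lgr5 (-1.80, limma adjusted p = 0.76). These 3 sizes depend on the 0.01 added before taking logs, since some anti-GFP mice had no UMI. Axin2 was at 0, 0.430, 0 and 0.258 in anti-GFP mice, against 0.521, 0.410, 0.466 and 0.454 in uninjured mice. Ascl2 was at 0, 0.0797, 0 and 0.115, against 0.0385, 0.226, 0.361 and 0.249. Lgr5 was at 0.0393, 0.419, 0 and 0.466, against 0.187, 0.320, 0.292 and 0.285. The groups overlapped for all 3 genes.

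The genes that separated SZN-1326-p from anti-GFP mice at 48 h had these values against uninjured mice, from the same anti-GFP mice. Sycn was at 0.855, 0.423, 0.642 and 1.03 in anti-GFP mice, against 5.05, 5.57, 4.56 and 4.45 in uninjured mice (log2 difference -2.69, SE 0.35, limma adjusted p = 0.00293). Thbs4 had a log2 difference of -2.00 (SE 0.31, limma adjusted p = 0.00293) and Adh1 of -2.85 (SE 0.54, limma adjusted p = 0.0384), each lower in 4 of 4 anti-GFP mice. B3gnt7 had no UMI in the anti-GFP mice and 149 in the uninjured mice, at least 13.3-fold lower. Hoxb13 had 2 against 203 UMIs, a ratio of 0.0367 per total UMI (95% interval of 0.00442 to 0.134 for counting error only). Hoxb5 was at 0.513, 0.450, 0.450 and 0.359 in anti-GFP mice, against 0.0353, 0.0699, 0.118 and 0.230 in uninjured mice (2.20, SE 0.50, limma adjusted p = 0.0452, higher in 4 of 4 mice).

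By list under injury, 2 of 11 antimicrobial genes passed as higher (Reg3b and Reg3g; 6 positive and 5 negative, median log2 difference 0.46), 1 of 16 goblet genes passed as lower (Agr2; median -0.93) and 1 of 38 DNA replication genes passed as lower (Lig1; median -0.85). Of 16 Wnt target and feedback genes 1 was lower (Ccnd2; median -0.54, or -0.87 with bounds), of 15 receptors 0 passed (median 0.36) and of 16 transducers 0 (median 0.27). Colonocyte genes gave 1 higher (Ceacam1) and 2 lower (Krt20 and Selenbp1) of 31. B and plasma cell markers, 0 of 3 past the test, had a median of -1.92, and their summed level was 0.155 to 0.917 in anti-GFP mice against 0.950 to 2.05 in uninjured mice. The B cell marker Ms4a1 had no UMI in either group. Median UMIs per StemCell cell were 10341 to 13159 in anti-GFP mice and 6861.5 to 9023 in uninjured mice. The part of these measures in the results was not tested. Pdgfa, listed among the stem cell markers, was higher (1.21) through the 24 h mouse at 3.84, while its 48 h levels of 1.08, 1.26 and 1.21 overlapped the uninjured 0.781 to 1.13.

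The injury count changed when single mice were left out. It was 7 without uninjured mouse 1 and 22 without mouse 2 at 24 h, 3 without mouse 1 and 17 without mouse 2 at 48 h, and 45, 41 and 58 without anti-GFP mouse 1, 2 and 3 at 48 h. Of 19 alternative settings, the minimum of 5 cells per mouse kept the same mice as the main fit and so repeats its calls. A library term, described below, is close to leaving out uninjured mouse 1 at 24 h. Of the 19 settings, Agr2, Dmbt1 and Sycn passed in 19, Hoxb13 in 17, Rgcc in 15 and Reg3b in 14. Reg3g and Elf3 passed in 13, Ccnd2 and B3gnt7 in 12, Adh1 in 11, Krt20 and Lig1 in 9, Hoxb5 and Lars2 in 8, and Id1 and Selenbp1 in 7; the other genes named by the rule passed in 10 to 14.

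**Figure D5:**
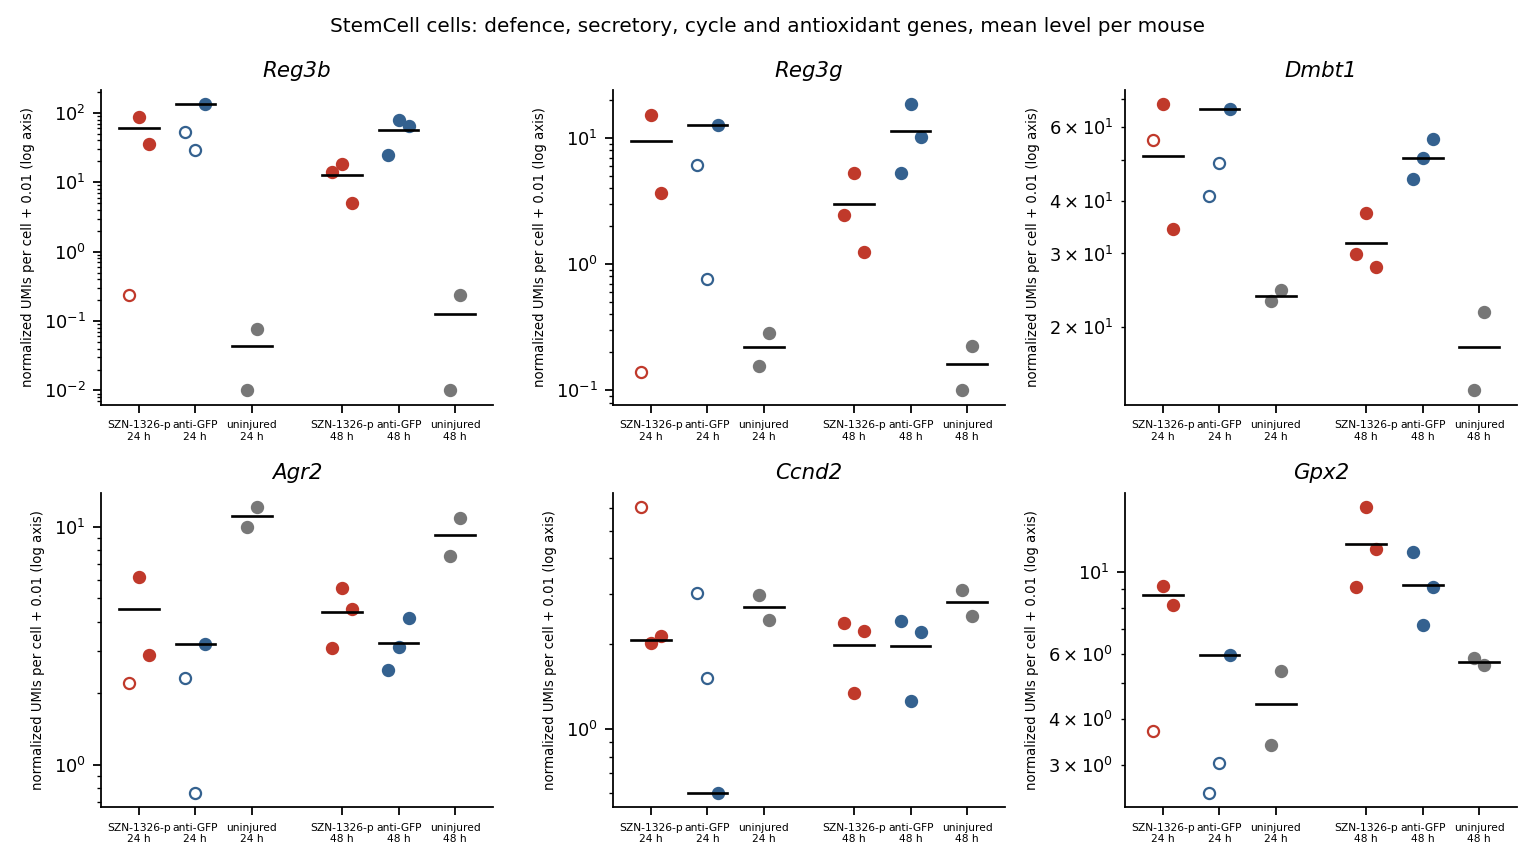
Mean normalized UMIs per StemCell cell plus 0.01 on a log axis for Reg3b, Reg3g, Dmbt1, Agr2, Ccnd2 and Gpx2, 1 point per mouse; lines are means of the mice in the fit and hollow points are mice with fewer than 10 StemCell cells. Anti-GFP mice in the fit sit above uninjured mice for Reg3b, Reg3g and Dmbt1 and below them for Agr2 and Ccnd2.

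SZN-1326-p mice, which carried the same injury, still differed from uninjured mice in part of these genes. Of 10889 genes, 12 passed over the mean of both times (0.11%), 5 higher (0.0459%) and 7 lower (0.0643%), and 3.53% did not overlap. With voom 37 were higher and 29 lower, and with the deposited log2 values 4 were higher and 17 lower. Reg3b was at 87.0 and 35.2 in SZN-1326-p mice at 24 h and at 14.2, 18.5 and 5.08 at 48 h, against at most 0.229 in uninjured mice (log2 difference 9.39, SE 1.10, limma adjusted p = 0.0473, higher in 5 of 5 mice). In SZN-1326-p mouse 1 at 24 h, outside the fit with 4 cells, Reg3b lay near the uninjured mice. Against anti-GFP mice the Reg3b difference was -2.18 at 48 h (SE 1.32, limma adjusted p = 0.62), with every SZN-1326-p mouse below every anti-GFP mouse.

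Gpx2, a glutathione peroxidase of the gut epithelium, was at 9.15 and 8.10 in SZN-1326-p mice at 24 h and at 9.10, 15.0 and 11.5 at 48 h, against 3.39, 5.38, 5.83 and 5.57 in uninjured mice (1.02, SE 0.20, limma adjusted p = 0.0373). Il18 was higher than in uninjured mice as well (2.12, SE 0.34, limma adjusted p = 0.01). Klk1 was lower, at 0.459, 0.614, 0.315, 0.715 and 0.537 in SZN-1326-p mice (-2.05, SE 0.29, limma adjusted p = 0.00266), and so were Agr2 (-1.23, limma adjusted p = 0.0347) and Crip1, a small LIM-domain protein (-1.20, SE 0.20, limma adjusted p = 0.0151). All 5 genes lay outside the uninjured range in 5 of 5 SZN-1326-p mice. The anti-GFP mice in the fit lay outside it on the same side for Gpx2 (5.96, 11.3, 7.15 and 9.08) and Crip1 (4.95, 3.56, 3.64 and 2.73). This also held for Klk1 and Agr2, while for Il18 the anti-GFP mice overlapped the uninjured mice.

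Also lower in SZN-1326-p mice were Pcdh17, a protocadherin, at 0.340, 0.105, 0.219, 0.259 and 0.117, against 0.650, 0.643, 0.850 and 0.796 in uninjured mice (-1.89, SE 0.35, limma adjusted p = 0.0338), Fndc5, the irisin precursor (-3.03, limma adjusted p = 0.0347), and Tmem252 (-2.65, limma adjusted p = 0.0473). Fut9, a fucosyltransferase, had 2 against 95 UMIs, a ratio of 0.0307 per total UMI (95% interval 0.00366 to 0.114 for counting error only). None of these genes overlapped between SZN-1326-p and uninjured mice. The anti-GFP mice in the fit also lay below the uninjured range for Pcdh17 (0.298, 0.421, 0.457 and 0.448) and Fndc5 (0.109, 0.0605, 0.0288 and 0.0397). For Fut9 and Tmem252 the anti-GFP mice overlapped the uninjured mice. The count of 12 was 24 without SZN-1326-p mouse 2 and 8 without mouse 3 at 24 h, 1, 5 and 1 without SZN-1326-p mouse 1, 2 and 3 at 48 h, 2 and 4 without uninjured mouse 1 and 2 at 24 h, and 0 and 4 without uninjured mouse 1 and 2 at 48 h.

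Ly6a, a surface protein of the regenerating epithelium, was at 0.861, 0.489, 0.269, 0.887 and 0.443 in SZN-1326-p mice, at 0.459, 0.144, 0.969 and 1.05 in anti-GFP mice and at 0.0612, 0.201, 0.0788 and 0.0705 in uninjured mice. It did not pass against uninjured mice in either injured arm (log2 difference 2.47 in SZN-1326-p mice and 2.31 in anti-GFP mice, limma adjusted p = 0.13 and 0.15). Clu, a marker of revival stem cells, was at 0 in all SZN-1326-p mice at 48 h and at 0, 0 and 0.115 in anti-GFP mice, too low to compare. At 24 h Clu was at 0.112 and 0.147 in SZN-1326-p mice (4 and 5 UMIs) and 0.248 in the anti-GFP mouse (8 UMIs). The uninjured mice at 24 h were at 0.00712 and 0.0107.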

How the data were processed

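Single-cell RNA-seq of 16 mice was used in 1 deposited matrix and its annotation. The deposited values of the authors are in the unit log2, the UMI count over a size factor of the cell, plus 1; un-logged, 60867816 entries above 0 were whole multiples of a step that is constant in a cell (tolerance 1e-06). The annotation columns are in the unit other, text labels of the authors. Reads were aligned to mm10 and counted with Cell Ranger 3.0.2, per the submitters' processing notes; size factor method, cell filters and doublet treatment are not given in the sources used here. No doublet caller was run here.

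The mouse was the replicate. Un-logged values were averaged per mouse over StemCell cells, with at least 10 cells (13 mice). Log2 of the mean plus 0.01 was tested with limma 3.58.1 (trend, robust; R 4.3.3) in 1 fit of 6 groups with 7 residual degrees of freedom, for 10889 genes with a mean of at least 0.05 in at least 2 mice, with Benjamini-Hochberg adjustment at 0.05. A count test was not the main test, since the unit is log2. Shares were compared as log2 share, 0.5 cell added, by two-sided exact permutation within time (Python 3.11.15, scipy 1.17.1, numpy 2.4.6). The limma and share tests were tested on simulated data. Coordinates are from GENCODE vM21, promoters from RefSeq (GRCm38.p6).

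Cells, the 31 gene lists and the genes were chosen with earlier results of these data known. Named genes are the largest changes that passed (up to 10 per direction), with a mean of at least 0.2 in the higher group and all mice of the first group on 1 side of the second group's mean, up to 4 past the test in each list, a set of stem, Wnt and injury genes, and the 6 of lowest p where fewer than 4 passed. Not every such gene is printed. Some genes beside these were chosen after their values were seen. Others are shown in a comparison for which the rule did not name them, among them Klk1 and Thbs4 in anti-GFP against uninjured mice. Alternatives were no filter, other pseudocounts, cell minimums, scaling and groups, voom, a library term, a replicate block and leaving out mice. The library term marked the libraries with almost no StemCell cells and uninjured mouse 1 at 24 h. Only that uninjured mouse was in the fit, so the term amounts to leaving it out.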

Additional observations from a re-analysis of the deposited data

How the results depend on the processing

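Counts of genes past the test moved with the settings; the cause was not tested. For the SZN-1326-p effect at 48 h (15 genes) the count was 27 with a pseudocount of 0.1, 189 with at least 20 cells per mouse (1 anti-GFP mouse left), 35 with voom, 7 with voom on every mouse (chosen after seeing the data), 6 with the compared groups alone, 1 without SZN-1326-p mouse 2 at 24 h and mouse 3 at 48 h (high mitochondrial share), 8 with a library term, 0 without cells holding markers of another lineage, and 0 to 65 with 1 mouse left out. At 24 h (0 genes) it was 6 with the pseudocount of 0.1, 10 with 20 cells, 1 with the mean of deposited log2 values and 0 to 2 with 1 mouse left out. For the mean of both times (1 gene) it was 0 with no filter, 4 with the pseudocount, 89 with 20 cells, 0 with voom, 2 with voom on every mouse, 0 with the groups alone, 0 without mice of high mitochondrial share, 0 without other-lineage cells and 0 to 4 with 1 mouse left out.

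For anti-GFP against uninjured (39 genes) the count was 66 with the pseudocount, 207 with 20 cells, 161 with voom (121 higher, 40 lower), 159 with voom on every mouse, 6 with the groups alone, 7 with the library term, 20 without other-lineage cells and 3 to 58 with 1 mouse left out. For SZN-1326-p against uninjured (12 genes) it was 4 with no filter, 32 with the pseudocount, 31 with 20 cells, 66 with voom, 34 with voom on every mouse, 21 with deposited log2 values, 34 with the groups alone, 2 with the library term, 3 without other-lineage cells and 0 to 24 with 1 mouse left out. For the difference between times (0 genes) it was 3 with the pseudocount, 32 with 20 cells, 1 with deposited log2 values and 0 to 4 with 1 mouse left out. For StemCell minus TA (0 genes) it was 3 with 20 cells, 1 without other-lineage cells and 0 to 1 with 1 mouse left out. The library term is no separate check, since it amounts to leaving out uninjured mouse 1 at 24 h.

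Replicate numbers showed no pairing among the mice that could be compared: 19 pairs with the same number correlated at -0.0527 to 0.0398. No pair held an anti-GFP mouse at 24 h or a mouse outside the fit, so pairing there was not tested. With the replicate block the count was 11 at 48 h, 0 at 24 h, 5 for the mean of both times, 23 for anti-GFP against uninjured, 8 for SZN-1326-p against uninjured, 1 for the difference between times and 0 for StemCell minus TA. The log2 share difference ranged from 0.29 to 1.36 for SZN-1326-p and from -2.38 to -1.32 for anti-GFP against uninjured with 1 mouse left out. None of the genes named by the rule and no share difference changed sign in these settings, while the median over all genes and the balance of calls did with voom and with deposited log2 values (at 48 h 12 higher and 23 lower with voom, against 11 and 4). Without anti-GFP mouse 3 at 24 h, comparisons that use 24 h could not be fitted. StemCell cells are few in several mice (13, 21 and 13 with anti-GFP at 48 h), and the standard error of the Lgr5 log2 difference at 48 h was 1.49.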
